A study of Mus musculus with 20 samples.

Results

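The mitochondrial ribosomal protein genes, whose symbols begin with Mrpl for the large subunit and Mrps for the small subunit, were followed across RNA libraries of mouse abdominal aorta. Members were taken by symbol, as Mrpl or Mrps followed by a digit, with pseudogenes left out. There were 78 such genes among the 14570 genes with a transcript listed in both the WT and the KO Ang II tables. All 78 reached a mean of at least 1 FPKM (fragments per kilobase of transcript and per unit of library depth, as the authors deposited them) and were among the 12536 genes tested. By symbol, 49 members were Mrpl and 29 Mrps, spread over 17 chromosomes.

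Mitochondria keep their own ribosomes, which make the few proteins that the mitochondrial genome encodes, all of them subunits of the respiratory chain and ATP synthase. The ribosomal RNAs come from mitochondrial DNA, whereas every protein of these ribosomes is encoded in the nucleus, made in the cytosol and imported. Nuclear respiratory factors and ETS-type factors are known to act on many genes of this class. Tissues rich in mitochondria, such as brown fat, which surrounds parts of the aorta, hold much of this machinery, and contractile smooth muscle holds less.

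The series named the kinase DAPK1 in its title and compared WT with KO mice given angiotensin II (Ang II), a peptide hormone that narrows arteries and raises blood pressure, or saline. Groups of 5 libraries were used here: KO mice infused with the peptide (500 ng/kg/min), WT mice infused at the same dose, and WT mice given saline. A further 5 libraries of KO mice given saline were described as WT in one label and as KO in their title and genotype, and are taken up at the end. The labels give 1 animal number for each library; strain, age, sex, the kind of knockout allele and its promoter or cell type were not given. Dapk1, on the transcripts listed in both tables, had 4.51, 9.46, 0.514, 6.51 and 2.73 FPKM in libraries labelled KO Ang II, namely KOAng_II402, KOAngII537, KOAngII560, KOAngII612 and KOAngII628. It had 9.16, 19.9, 3.96, 9.50 and 11.1 FPKM in the WT Ang II libraries WTAng_II519, WTAng_II536, WTAngII568, WTAngII580 and WTAngII581, and 15.4, 9.48, 10.1, 12.6 and 12.9 FPKM in the WT saline libraries WTNS_369, WTNS_373, WTNS_523, WTNS_547 and WTNS_550. The KO Ang II libraries KOAng_II402, KOAngII537 and KOAngII612 lay inside the WT Ang II range, and KOAngII537 just under the lowest WT saline value, so "KO" below is the label of the libraries and not a measured loss in each one.

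Smooth muscle marker genes summed to 5567 to 10129 FPKM in KO Ang II, 6971 to 14505 in WT Ang II and 5744 to 12887 in WT saline, so the aortic wall was present in every library. Fat was present too. Ucp1, the uncoupling protein that defines brown adipocytes, had 1139, 668, 146, 359 and 1234.5 FPKM in the KO Ang II animals in the order given above. It had 32.4, 408, 276, 1352 and 158 FPKM in the WT Ang II animals and 913, 1765, 257, 338 and 942 FPKM in the WT saline animals. The ranges of the 3 groups overlapped. White adipocyte markers summed to 2188 to 7300.0 FPKM in KO Ang II, 1669 to 5708 in WT Ang II and 2282 to 7982 in WT saline. Skeletal muscle markers summed to 1.95 to 33.1 FPKM in KO Ang II, 3.28 to 183 in WT Ang II and 2.15 to 201 in WT saline. Intestinal markers, which an aorta should lack, summed to 23.9 to 54.8 FPKM in KO Ang II and 1.15 to 20.8 in WT Ang II, where animals WTAngII580 and WTAngII581 had 20.8 and 20.1. They summed to 1.88 to 5.59 FPKM in WT saline, with 7 of the 8 tested intestinal markers at 0 in every WT saline library. In such bulk tissue, fewer cells of a type and less RNA per cell cannot be told apart.

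All 78 genes were read at levels well above the filter, and their mean FPKM over the 15 libraries ran from 3.54 to 53.5, a 15.1-fold range around a median of 13.7. There were 56 members over 10 FPKM and 9 over 30 FPKM. The median level was 15.5 FPKM for Mrpl genes and 11.7 FPKM for Mrps genes. The most abundant were Mrpl42 at 53.5 FPKM, Mrps21 at 51.4, Mrpl30 at 46.5, Mrpl33 at 46.4 and Mrpl24 at 40.7. The least abundant were Mrpl19 at 3.54 FPKM, Mrpl45 at 3.93, Mrpl32 at 4.04, Mrpl53 at 4.19 and Mrps10 at 4.43. Mrpl30, Mrpl33, Mrpl24, Mrpl19, Mrpl32, Mrps21 and Mrps10 are counterparts of bacterial ribosomal proteins, and Mrpl42 and Mrpl53 belong to the proteins that mitochondrial ribosomes gained. Mrpl45 sits at the exit of the nascent chain, where the ribosome meets the inner membrane.

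**Figure D1:**
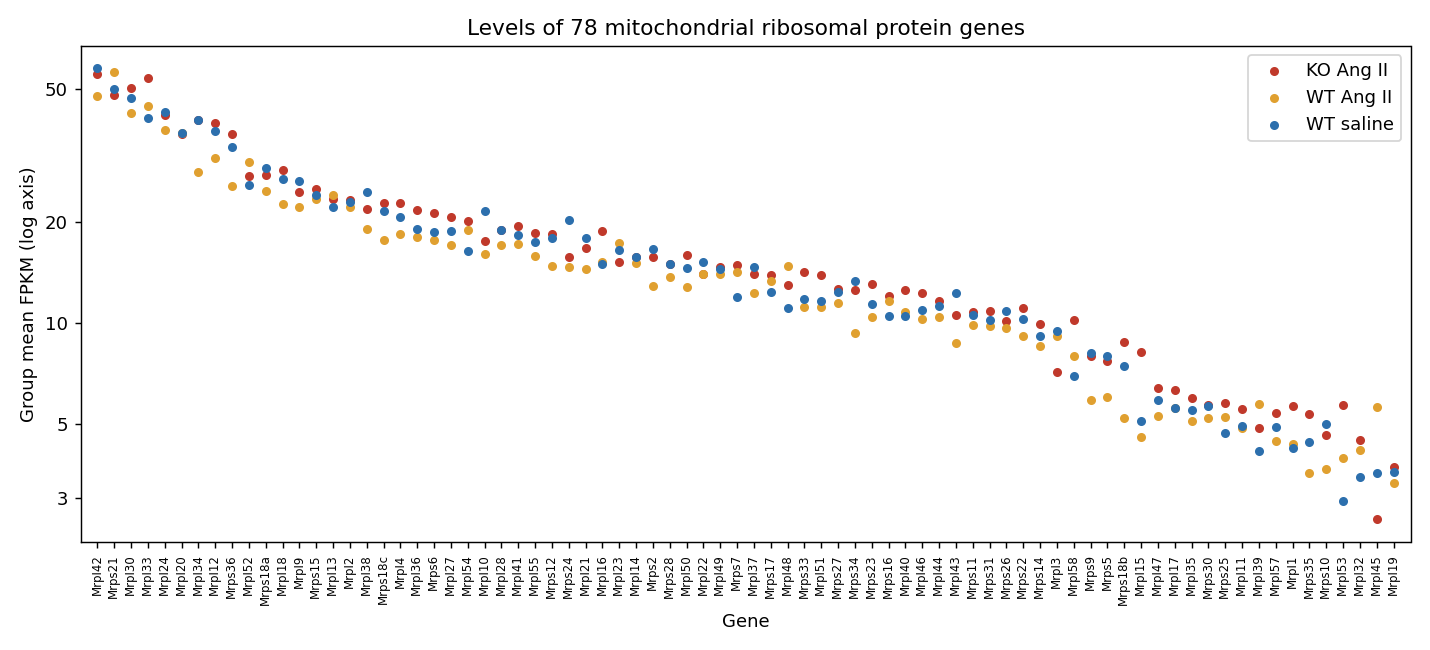
Group mean FPKM (log axis, 5 libraries per group) of each of the 78 genes, ordered by their mean over the 15 libraries. The 3 groups lie close together along a slope from Mrpl42 at 53.5 FPKM to Mrpl19 at 3.54 FPKM.

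The top pair in this order, Mrpl42 and Mrps21, overlapped over most of their libraries. Mrpl42 (chromosome 10, 95480805 to 95501940, minus strand, GRCm38) averaged 55.5 ± 19.7 FPKM in KO Ang II, 47.6 ± 15.01 in WT Ang II and 57.5 ± 15.7 in WT saline (SD, n = 5 each). Mrps21 averaged 48.0 ± 7.29 FPKM in KO Ang II, 56.1 ± 7.05 in WT Ang II and 50.04 ± 21.5 in WT saline (SD, n = 5 each). At the low end, Mrpl19 varied little, with 3.72 ± 0.521 FPKM in KO Ang II, 3.32 ± 0.706 in WT Ang II and 3.58 ± 0.510 in WT saline (SD, n = 5 each). Mrps10 varied much more at a similar level. It had 6.21, 9.16, 3.24, 3.16 and 1.36 FPKM in KO Ang II, 1.08, 2.41, 1.07, 11.3 and 2.54 in WT Ang II, and 9.26, 10.6, 1.56, 2.40 and 1.08 in WT saline.

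Promoter windows of members are shown because so many members varied together across libraries, as given further on. RefSeq windows of GRCm38.p6, from 250 bases before to 50 bases after each annotated start, were matched by symbol for 69 of the 78 members, with 75 windows in all. Each was searched on both strands for 3 motifs, chosen after the values were seen: GCGCA, any base and GCGC, which nuclear respiratory factor 1 (NRF1) binds, CCGGAAG, a core bound by ETS factors, and AAGATGGCG, bound by YY1. No motif's letters contain another's. The windows below have these matches in capitals and run 5′ to 3′ on the strand of the gene. Mrpl12 (chr11:120484387-120484686, plus strand) and Mrpl34 (chr8:71464676-71464975, plus strand) are among the members that followed the brown adipocyte markers most closely, Mrps27 (chr13:99344536-99344835, plus strand) is one that holds 2 of the motifs, and Mrpl52 (chr14:54426659-54426958, plus strand) is an abundant member whose slope on those markers was near 0.
Mrpl12: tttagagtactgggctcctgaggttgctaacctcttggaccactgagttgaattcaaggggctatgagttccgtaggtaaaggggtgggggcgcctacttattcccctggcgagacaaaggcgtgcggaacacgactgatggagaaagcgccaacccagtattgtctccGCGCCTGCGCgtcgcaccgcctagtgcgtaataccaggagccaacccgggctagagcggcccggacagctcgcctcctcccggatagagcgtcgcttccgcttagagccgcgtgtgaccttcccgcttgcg
Mrpl34: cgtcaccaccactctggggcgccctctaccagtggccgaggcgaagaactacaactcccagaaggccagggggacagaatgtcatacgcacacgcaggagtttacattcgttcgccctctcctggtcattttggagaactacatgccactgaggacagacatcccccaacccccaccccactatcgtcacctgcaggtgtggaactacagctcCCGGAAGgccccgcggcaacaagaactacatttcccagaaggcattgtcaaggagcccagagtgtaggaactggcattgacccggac
Mrps27: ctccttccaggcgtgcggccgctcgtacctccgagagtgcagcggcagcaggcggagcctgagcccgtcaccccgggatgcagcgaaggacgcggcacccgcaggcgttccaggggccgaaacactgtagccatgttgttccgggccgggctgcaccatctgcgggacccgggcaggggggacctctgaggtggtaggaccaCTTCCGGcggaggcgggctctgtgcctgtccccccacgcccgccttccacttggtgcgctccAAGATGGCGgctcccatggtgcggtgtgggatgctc
Mrpl52: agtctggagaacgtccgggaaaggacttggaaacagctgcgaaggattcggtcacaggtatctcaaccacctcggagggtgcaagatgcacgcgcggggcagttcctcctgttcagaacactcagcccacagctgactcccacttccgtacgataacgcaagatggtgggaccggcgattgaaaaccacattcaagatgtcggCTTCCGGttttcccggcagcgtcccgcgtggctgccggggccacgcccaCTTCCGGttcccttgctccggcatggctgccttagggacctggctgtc
The capitals in Mrpl12 are the NRF1 motif, on the reverse strand, starting at position -81 from the annotated start. In Mrpl34 they are the ETS core at -37. Mrps27 has the ETS core on the reverse strand at -48 and the YY1 motif at 15. Mrpl52 has the ETS core on the reverse strand at -47 and again at 3.

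The NRF1 motif was in 13 members, which is 17.33% of member windows beside 4.6% of all 32851 windows. The ETS core was in 26 members, 34.67% of member windows beside 8.86% of all. The YY1 motif was in 8 members, 10.67% beside 1.4%. At least 1 of the motifs was in 41 members and at least 2 different ones in 6. A match is only a run of letters, and no binding was measured here.

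Transcripts as well as genes were listed. The 78 genes had 202 annotated transcripts in both tables, from 1 transcript in 19 members to 8 at most, and in 30 members the leading transcript held over 90% of the gene's FPKM. Protein-coding transcripts carried 88.69% of the summed FPKM, retained-intron transcripts 7.05%, processed transcripts 2.47% and transcripts marked for nonsense-mediated decay 1.78%. The leading transcript was coding in 72 members. It was a retained intron in Mrpl38, Mrpl53, Mrps5, Mrps26 and Mrps34, and a processed transcript in Mrps16. The exons of 33 members overlap another annotated gene, on the opposite strand in 28 and on the same strand in 8, and it is not given whether reads were counted by strand. For these genes, among them Mrps18b with the antisense gene Gm16279, Mrpl43 with Twnk and Mrpl58 with Ict1os, the reads of the partner may be included.

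Summed over the 78 genes, the libraries held 1508, 1410.4, 1085, 1305 and 1423 FPKM in KO Ang II, in the order of animals given above. The sums were 1029, 1174, 1079, 1564 and 1087 FPKM in WT Ang II and 1235, 1765, 1135, 1032 and 1276 FPKM in WT saline. The means were 1346 ± 163 FPKM in KO Ang II, 1187 ± 217 in WT Ang II and 1289 ± 283 in WT saline (SD, n = 5 each). All 3 groups overlapped, with lowest libraries of 1085 FPKM in KO Ang II, 1029 in WT Ang II and 1032 in WT saline. The highest sum belonged to animal WTNS_373, which also had the highest Ucp1, and animal WTAngII580 was second in both. The lowest sum belonged to animal WTAng_II519, which also had the lowest Ucp1. The ratio of the Mrpl sum to the Mrps sum ran from 1.94 in WTNS_373 to 2.26 in KOAngII612 over the 15 libraries.

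**Figure D2:**
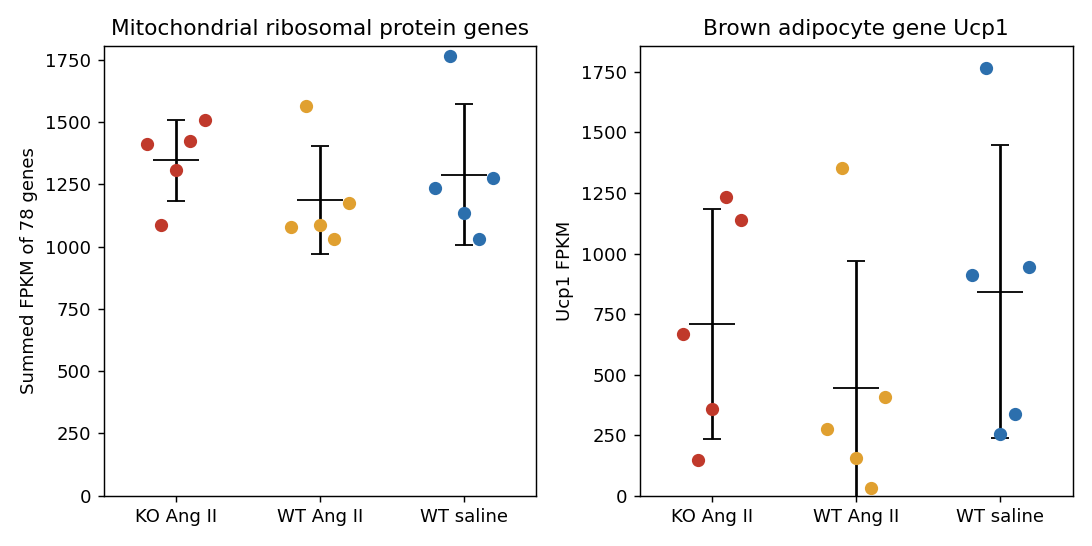
Left, FPKM summed over the 78 genes in each library; right, Ucp1 FPKM in the same libraries. Points are libraries and the line and bars the mean and SD of 5 (the lower bar of WT Ang II for Ucp1 runs below the axis); WTNS_373 is highest in both panels, at 1765 FPKM on the left and 1765 on the right, and WTAng_II519 lowest in both, at 1029 and 32.4.

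The first comparison asked how the genes differed between mice labelled KO and WT mice under the same Ang II infusion. The log2 difference of FPKM + 1, KO Ang II minus WT Ang II, was positive for 68 of the 78 members, against 47.5% of all tested genes. By symbol, these were 40 of 49 Mrpl and 28 of 29 Mrps genes. The median member difference was 0.18, against -0.02 for all genes, and the medians were 0.18 for Mrpl and 0.17 for Mrps. No member passed limma's adjusted p threshold of 0.05 over all tested genes, and neither did any other gene (0 genes, 0%), while 892 genes had an unadjusted p under 0.05; the smallest adjusted p of a member was 0.674. At an unadjusted p under 0.05 there were 4 members, all with positive differences, which is 5.13% of the 78; 7.12% of all genes were under it, 2.94% in that direction. The groups were apart in all libraries for 0 members, against 0.383% of genes with KO Ang II above and 0.503% with it below. Members vary together across libraries, so a count of signs rests on 5 animals per group and not on 78 separate observations. Without KOAngII537, the KO Ang II library with the most Dapk1, 68 members were again positive, with a median of 0.17; this leaves in KOAng_II402 and KOAngII612, whose Dapk1 was also inside the WT Ang II range. Without WTAngII580 the median was 0.275.

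Those 4 were Mrps12, Mrps18b, Mrps35 and Mrpl50, of which Mrps12 had the smallest spread. Mrps12 (chromosome 7, 28739641 to 28741820, minus strand), counterpart of a bacterial protein of the decoding centre, had 18.7, 20.7, 16.2, 19.3 and 17.5 FPKM in KO Ang II. It had 14.0, 13.8, 14.9, 16.7 and 14.5 FPKM in WT Ang II, and 19.3, 21.6, 16.6, 15.4 and 16.7 in WT saline. Only animal KOAngII560 lay below the highest WT Ang II animal, WTAngII580. The log2 difference was 0.30 (SE 0.11, limma adjusted p = 0.674).

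Mrps18b, one of 3 paralogs of the same bacterial protein that mammals keep, had 8.90, 11.8, 5.22, 7.47 and 10.6 FPKM in KO Ang II. It had 4.05, 3.70, 3.44, 9.81 and 5.08 FPKM in WT Ang II, and 9.61, 9.24, 5.86, 4.40 and 8.18 in WT saline. Without animal WTAngII580, every WT Ang II library was below every KO Ang II library; with it, the log2 difference was 0.70 (SE 0.27, limma adjusted p = 0.674). The other paralogs had smaller differences, 0.15 (SE 0.15) for Mrps18a, now placed in the large subunit, and 0.35 (SE 0.22) for Mrps18c.

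Mrps35, a small subunit protein without a bacterial counterpart, had 6.82, 5.02, 4.47, 3.90 and 6.53 FPKM in KO Ang II, against 2.66, 2.44, 3.59, 6.33 and 2.77 in WT Ang II. Its log2 difference was 0.51 (SE 0.22). Mrpl50, a large subunit protein gained by mitochondria, had 18.4, 16.6, 13.4, 14.2 and 17.4 FPKM in KO Ang II, against 9.77, 12.4, 11.3, 18.2 and 12.5 in WT Ang II, and its difference was 0.32 (SE 0.15). In both genes animal WTAngII580 was again the one WT Ang II library among the KO Ang II values, and the limma adjusted p was 0.674.

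The difference of greatest size was that of Mrpl15, a large subunit protein with a bacterial counterpart (chromosome 1, 4773206 to 4785739, minus strand). It had 12.4, 5.45, 6.87, 9.29 and 6.88 FPKM in KO Ang II, 5.38, 8.56, 3.68, 2.59 and 2.64 in WT Ang II, and 2.42, 10.7, 2.77, 2.70 and 6.91 in WT saline. The KO Ang II minimum of 5.45 lay above 4 of the 5 WT Ang II values, and the log2 difference was 0.78 (SE 0.37, limma adjusted p = 0.674). Mrpl15 has 4 shared transcripts, of which the leading one holds 39.5% of its FPKM.

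Only 10 members had negative differences, 9 of them Mrpl. Mrpl45 had 2.07, 3.94, 2.31, 2.02 and 2.65 FPKM in KO Ang II, against 7.20, 1.53, 7.28, 9.13 and 2.94 in WT Ang II and 2.28, 3.66, 7.49, 2.25 and 2.18 in WT saline. Its 15 values fell into a low set under 4 FPKM and a high set over 7 FPKM, with 3 WT Ang II animals, 1 WT saline animal and 0 KO Ang II animals in the high set; the log2 difference was -0.73 (SE 0.37, limma adjusted p = 0.674). Mrpl3, a large subunit protein with a bacterial counterpart, had 11.5, 3.81, 9.13, 7.60 and 3.74 FPKM in KO Ang II, against 7.04, 9.07, 9.11, 12.2 and 8.33 in WT Ang II, a log2 difference of -0.40 (SE 0.25). A further Mrpl3 transcript, marked for nonsense-mediated decay and listed in the KO Ang II table alone, had 17.0, 7.58 and 17.1 FPKM in animals KOAngII537, KOAngII612 and KOAngII628. With it counted, and entered as 0 in the WT libraries, where it was not listed, the difference was 0.65 (limma adjusted p = 0.632). Counting it in this way could only raise the difference, so the turn of sign cannot tell how the groups differ on this transcript. Mrpl39 had the third negative difference by size, -0.23 (SE 0.31), and 0.02 when libraries were weighted by quality.

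**Figure D3:**
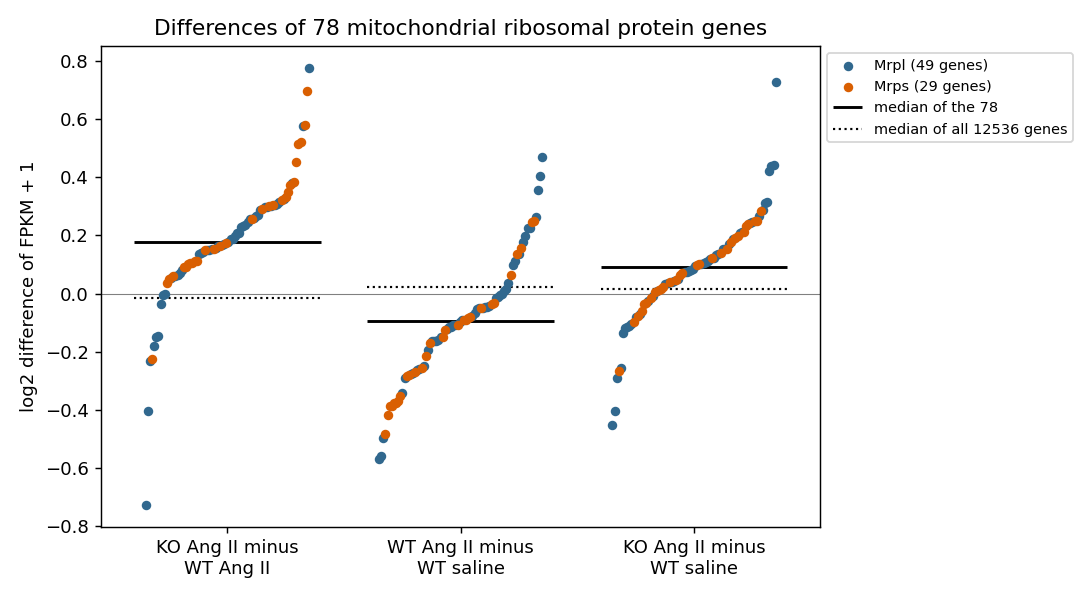
Log2 differences of FPKM + 1 of the 78 genes in the 3 comparisons, each sorted from lowest to highest; the solid line is the median of the 78 and the dotted line that of all tested genes. KO Ang II minus WT Ang II lies mostly above 0 (68 of 78), WT Ang II minus WT saline mostly below (59 of 78), and none of the points passed the adjusted p threshold.

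The second comparison, Ang II against saline in WT mice, ran mostly the other way, with the same WT Ang II libraries now on top of the difference. The log2 difference was negative for 59 of the 78 members, against 46.1% of all genes, with a median of -0.09 for members and 0.02 for all genes. The other 19 were positive, against 53.9% of genes. The median was -0.07 for Mrpl and -0.15 for Mrps. It depended on single libraries: the member median was -0.008 without WTNS_373, when 37 members were positive, and -0.040 without WTAng_II519, but -0.149 without WTNS_547 and -0.175 without WTAngII580. Limma called 0 members and 0 genes (0%), with a smallest member adjusted p of 0.938; at an unadjusted p under 0.05 there was 1 member, Mrps12, while 621 genes (4.95%) were under it; that member was on the negative side, whereas 3.29% of genes were under it on the positive side. No member had its groups apart in all libraries, against 0.718% of genes with WT Ang II above and 0.311% with it below.

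Mrps12, whose values are given above, differed by -0.26 (SE 0.11, limma adjusted p = 0.938). The next smallest p belonged to Mrpl48, a large subunit protein gained by mitochondria, with 9.08, 13.9, 20.8, 16.5 and 13.7 FPKM in WT Ang II, against 10.1, 11.7, 14.4, 9.17 and 9.99 in WT saline, a difference of 0.36 (SE 0.19). Mrpl21, Mrps5 and Mrps9, all counterparts of bacterial proteins, had differences of -0.29 (SE 0.16), -0.37 (SE 0.20) and -0.39 (SE 0.22). In Mrps5, WT Ang II animals had 4.75, 5.55, 4.50, 9.71 and 5.48 FPKM and WT saline animals 6.88, 11.5, 7.79, 5.90 and 7.62, so that 4 of 5 WT Ang II libraries lay below all of WT saline and animal WTAngII580 near its top. The other positive differences by size were those of Mrpl45 at 0.47 (SE 0.37) and Mrpl39 at 0.40 (SE 0.31).

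The negative differences of greatest size were in Mrpl10 at -0.57 (SE 0.43), Mrpl43 at -0.56 (SE 0.61) and Mrpl34 at -0.50 (SE 0.35). Mrpl10 forms part of the ribosome's stalk, and it had 14.9, 4.00, 16.1, 26.3 and 19.0 FPKM in WT Ang II, against 20.8, 28.7, 20.05, 15.7 and 22.5 in WT saline. Without WTAng_II536, the library at 4.00 FPKM, the difference was -0.18; in KO Ang II one library, KOAng_II402, was likewise low at 5.41 FPKM. Mrpl43, a large subunit protein gained by mitochondria and listed with a single transcript, had 11.2, 2.01, 15.8, 3.001 and 11.6 FPKM in WT Ang II and 2.80, 19.2, 13.2, 11.6 and 14.5 in WT saline. In KO Ang II it had 17.9, 2.97, 14.0, 14.6 and 3.42 FPKM, so each group held 1 or 2 libraries near 3 FPKM and none between 4 and 11.

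The third comparison set KO Ang II against WT saline, which differ in both the label and the infusion and were each part of one of the comparisons above. The difference was positive for 58 of 78 members, against 52.7% of genes, with medians of 0.09 for members and 0.02 for all genes. The member median was 0.192 without WTNS_373 and 0.151 without KOAngII560, but 0.034 without KOAng_II402, 0.030 without WTNS_523 and 0.023 without WTNS_547. Limma called 11 genes (0.0877% of those tested), 10 of them higher in KO Ang II (0.0798%) and 1 lower (0.00798%), and none was a member; the smallest member adjusted p was 0.668. A single member, Mrpl58, had an unadjusted p under 0.05, while 7.47% of genes did, 3.49% with a positive difference as here. In 0 members did the groups not overlap, against 0.710% of genes with KO Ang II above and 0.830% with it below. Of those genes called, 6 were intestinal markers, whose sums are given above; their part in the values of the members was not tested.

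Mrpl58, also known as ICT1, is a peptidyl-tRNA hydrolase built into the large subunit that frees stalled chains. It had 6.42, 17.5, 9.56, 8.18 and 9.40 FPKM in KO Ang II, 7.70, 9.77, 6.78, 8.78 and 6.91 in WT Ang II, and 5.995, 8.69, 6.77, 5.75 and 7.54 in WT saline. KO Ang II minus WT saline was 0.44 (SE 0.20, limma adjusted p = 0.668), and 0.24 without animal KOAngII537, the library at 17.5 FPKM. In that library the retained-intron transcripts ENSMUST00000155134 and ENSMUST00000134386 held 6.47 and 4.58 FPKM. The coding transcripts ENSMUST00000103036 and ENSMUST00000153983 held 3.15 and 2.15 FPKM there. Mrpl15 differed by 0.73 (SE 0.37), Mrpl33 by 0.42 (SE 0.20) and Mrpl1, whose protein lies on the stalk where transfer RNAs leave, by 0.31 (SE 0.18). Mrpl53 differed by 0.44 (SE 0.46) through animal KOAngII612 at 16.2 FPKM, and by 0.01 without it. On the negative side stood Mrpl3 at -0.45 (SE 0.25), Mrpl10 at -0.40 (SE 0.43) and Mrpl43 at -0.29 (SE 0.61). The Mrpl3 difference became 0.61 with the transcript named above, which was entered as 0 in WT saline because it was not listed there.

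Within groups, 32 of the 78 members rose with the brown adipocyte markers across libraries past the adjusted p threshold, and none fell past it. The mean log2(FPKM + 1) of 10 such markers, among them Ucp1, Cidea and Cox8b, was 6.04, 5.58, 3.72, 4.38 and 5.66 in KO Ang II, 2.88, 4.84, 4.36, 6.07 and 3.85 in WT Ang II, and 5.85, 6.44, 4.39, 4.46 and 5.61 in WT saline. A slope on this mean was fitted with limma beside the groups, in a test chosen with these data known. It was positive past the adjusted p of 0.05 in 32 of 78 members, 18 Mrpl and 14 Mrps, against 6.92% of all genes, and negative in 0 members, against 5.30%. Past the threshold or not, it was positive in 70 members, against 40.1% of genes. The median slope was 0.17 log2 units per log2 unit of the marker mean for members, 0.14 for Mrpl and 0.22 for Mrps, against -0.04 for all genes.

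**Figure D4:**
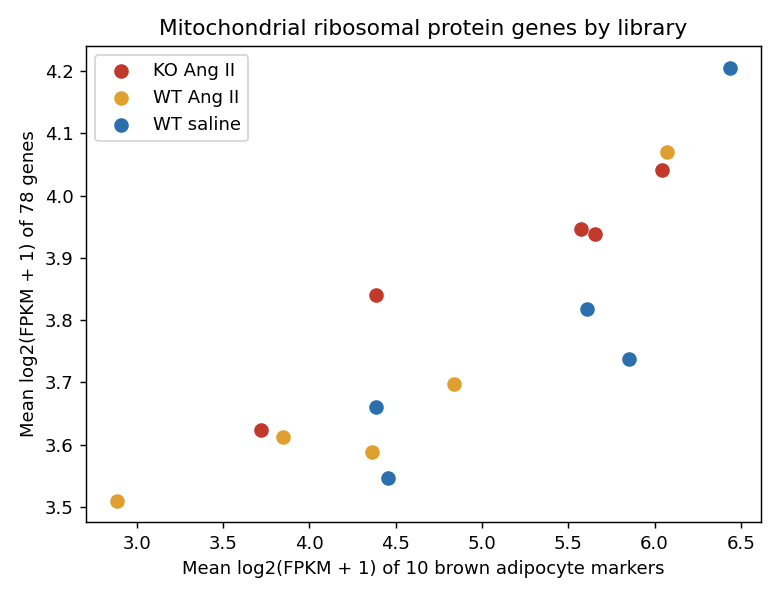
Mean log2(FPKM + 1) of the 78 genes against that of 10 brown adipocyte markers, 1 point per library and 1 colour per group. In each group the library with the highest marker mean also has the highest mean of the 78 genes, up to WTNS_373 at a marker mean of 6.44.

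The slopes that passed with the smallest p were those of Mrps36, Mrps2, Mrpl34, Mrpl47, Mrpl30 and Mrpl12. Mrps36 (chromosome 13, 100735955 to 100744659, minus strand), named as a small subunit gene although its protein is known as a part of the 2-oxoglutarate dehydrogenase complex, had 50.4, 37.0, 22.6, 29.7 and 43.8 FPKM in KO Ang II. It had 12.9, 25.6, 23.4, 48.2 and 18.1 FPKM in WT Ang II and 29.8, 60.4, 20.9, 19.5 and 37.3 in WT saline. Its slope was 0.56 (SE 0.052, limma adjusted p = 1.6e-05), and its group differences, 0.58 (SE 0.35) for KO Ang II minus WT Ang II and -0.39 (SE 0.35) for WT Ang II minus WT saline, did not pass.

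Mrpl34, a short protein of the large subunit with a bacterial counterpart and the ETS core shown above, had 46.7, 47.3, 23.1, 34.1 and 51.0 FPKM in KO Ang II, 17.5, 30.6, 19.7, 52.5 and 20.3 in WT Ang II, and 47.5, 68.6, 22.9, 22.1 and 40.2 in WT saline. Its slope was 0.55 (SE 0.058, limma adjusted p = 4.13e-05). With the marker mean in the model, the Ang II difference in WT became 0.02, in place of -0.50. Mrpl12, a stalk protein that also binds the mitochondrial RNA polymerase (chromosome 11, 120484613 to 120489065, plus strand), had 51.2, 41.8, 23.7, 35.5 and 45.7 FPKM in KO Ang II, 22.8, 28.0, 21.8, 54.2 and 28.0 in WT Ang II, and 40.6, 59.2, 24.9, 27.0 and 34.998 in WT saline. Its slope was 0.42 (SE 0.059, limma adjusted p = 0.000434). In all 3 genes WTAngII580 was the highest WT Ang II library and WTNS_373 the highest WT saline library, and KOAngII560 was the lowest KO Ang II library.

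Mrps2, counterpart of a bacterial small subunit protein, had a slope of 0.42 (SE 0.044, limma adjusted p = 4.07e-05), Mrpl47, with a bacterial counterpart, 0.33 (SE 0.041, adjusted p = 0.000148) and Mrpl30 0.35 (SE 0.043, adjusted p = 0.000154). Mrps10 had the steepest slope, 0.63, with an SE of 0.21 and an adjusted p of 0.0714, and Mrps23, a small subunit protein gained by mitochondria, followed with 0.61 (SE 0.13, limma adjusted p = 0.00715).

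Among the members described next, the slope of Mrps30 passed the threshold and the others did not. Mrpl52, shown above, had 28.9, 24.2, 24.3, 36.1 and 23.7 FPKM in KO Ang II, 33.1, 28.2, 28.4, 28.2 and 33.0 in WT Ang II, and 28.6, 29.3, 26.4, 20.05 and 24.8 in WT saline, and its slope was -0.01 (SE 0.059, limma adjusted p = 0.959). Mrpl13, with a bacterial counterpart, was among the steadiest: 24.8, 23.8, 19.9, 23.6 and 25.2 FPKM in KO Ang II, 23.6, 23.9, 24.1, 23.9 and 24.5 in WT Ang II, and 20.2, 24.1, 23.1, 21.3 and 22.2 in WT saline. Its slope was 0.04 (SE 0.033). Mrpl41, whose protein has also been tied to cell death, averaged 19.4 ± 2.09 FPKM in KO Ang II, 17.2 ± 2.15 in WT Ang II and 18.3 ± 3.44 in WT saline (SD, n = 5 each), with a slope of 0.10 (SE 0.052). Mrps30, known also as PDCD9 and now placed in the large subunit, averaged 5.70 ± 0.874 FPKM in KO Ang II, 5.20 ± 0.875 in WT Ang II and 5.65 ± 0.583 in WT saline (SD, n = 5 each); its slope of 0.14 (SE 0.043, limma adjusted p = 0.047) passed narrowly. Mrpl33 at -0.03 (SE 0.093) and Mrpl23 at -0.04 (SE 0.068) were likewise near 0, and Mrpl43 at -0.44 (SE 0.25, limma adjusted p = 0.314) had the one steep negative slope. Of members with a promoter window, 17 of the 29 whose slope passed held at least 1 of the 3 motifs, as did 24 of the 40 whose slope did not.

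**Figure D5:**
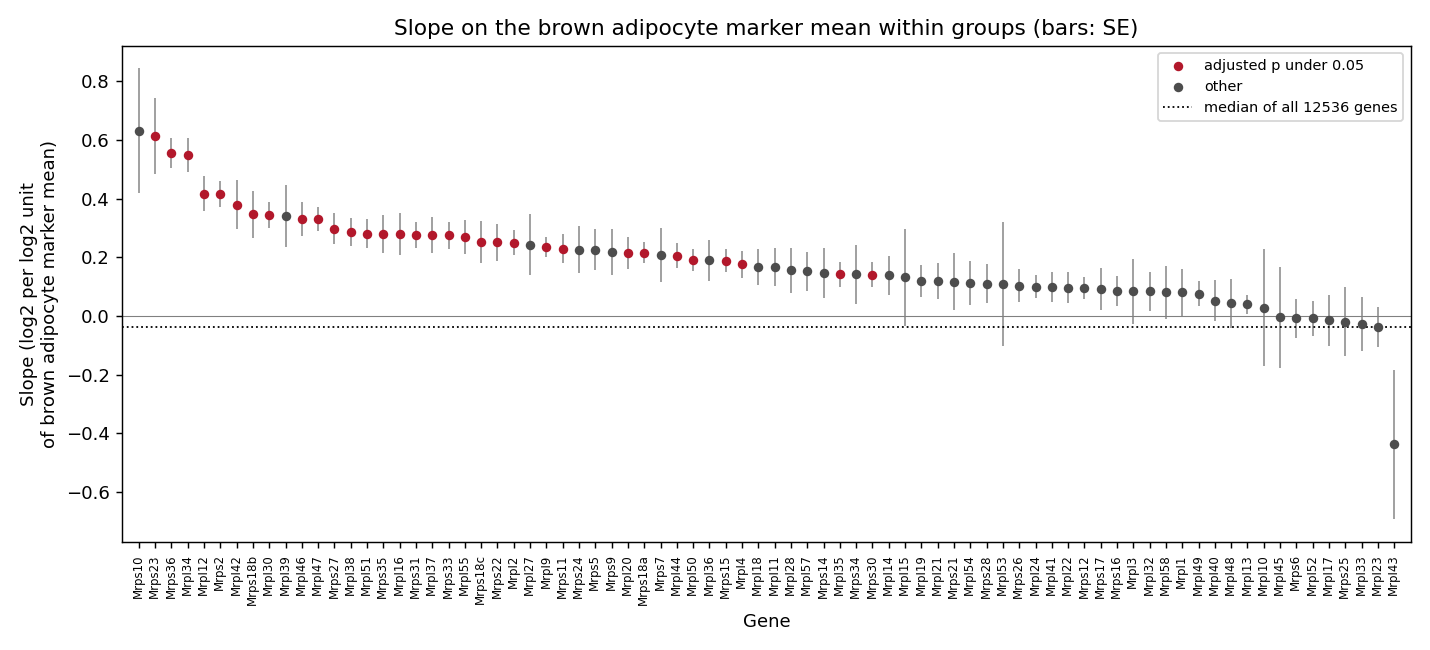
Slope of each of the 78 genes on the brown adipocyte marker mean within groups, with SE, sorted from high to low; red marks an adjusted p under 0.05 and the dotted line is the median of all tested genes. Slopes run from 0.63 in Mrps10 to -0.44 in Mrpl43, with 32 of them past the threshold and all of those positive.

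With the marker mean in the model, the median member difference was 0.05 for KO Ang II minus WT Ang II, in place of 0.18, and 56 members were positive in place of 68. For WT Ang II minus WT saline it was 0.08, in place of -0.09, and 57 members were positive in place of 19, so the direction of that comparison turned. For KO Ang II minus WT saline it was 0.14, in place of 0.09. No member passed the threshold in any of them. Brown adipocyte markers themselves were positive in 9 of 10 for KO Ang II minus WT Ang II, with a median log2 difference of 0.94, and in 1 of 10 for WT Ang II minus WT saline, with a median of -0.98, and none passed. For KO Ang II minus WT Ang II, sympathetic neuron markers were positive in 7 of 8, with a median of 2.05, white adipocyte markers in 6 of 6, with a median of 0.38, and smooth muscle markers in 1 of 8, with a median of -0.41. For WT Ang II minus WT saline, sympathetic neuron markers were positive in 1 of 8, with a median of -0.985, white adipocyte markers in 1 of 6, with a median of -0.11, smooth muscle markers in 7 of 8, with a median of 0.27, and macrophage markers in 8 of 8, with a median of 0.555. No gene of these lists passed the threshold in either comparison. Sympathetic neuron markers summed to 3.64 to 833 FPKM in KO Ang II, 11.05 to 136 in WT Ang II and 9.27 to 442 in WT saline, and macrophage markers to 239 to 514 FPKM in KO Ang II, 336 to 469 in WT Ang II and 227 to 331 in WT saline. Slopes on the brown adipocyte mean were negative past the threshold in 6 of 8 smooth muscle markers, with a median of -0.31, and passed in 0 sympathetic neuron and 0 macrophage markers. In skeletal muscle markers these slopes were positive in 5 of 5 tested, with a median of 0.68, and passed in 0. The part of brown fat or of any of these cell types in the members' differences was not tested.

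The count of slopes depended on 1 library, WTAngII580. Without it, 18 members had a positive slope past the threshold in place of 32, and 797 genes had a slope past it in either direction in place of 1532, while the median member slope lay between 0.15 and 0.20 whichever library was left out. Without animals WTAngII580 and WTAngII581, which were also the WT Ang II libraries with intestinal markers, 17 members passed. Of the WT Ang II libraries, WTAngII580 also had the highest skeletal muscle marker sum, 183 FPKM. Without the libraries farthest from the median marker mean, WTAng_II519 and WTNS_373, 22 members passed and the median slope was 0.16, with 890 genes past the threshold in either direction. With Ucp1 alone as the covariate, 29 members had a positive slope past the threshold, against 5.63% of all genes, and 0 a negative one, against 3.27%. With the mean of the white adipocyte markers in its place there were 28, against 6.65% of genes, and 0 negative ones, against 6.17%.

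The members also tracked one another. Pearson's r of a member with the mean of the other members over the 15 libraries had a median of 0.698. This r is only a description, because the libraries differ in depth and tissue makeup. It was over 0.8 in 28 members and under 0.2 in 8. Mrps36 at 0.954 and Mrpl12 at 0.95 were highest, and Mrpl43 at -0.168, Mrpl23 at -0.119, Mrps25 at -0.116 and Mrpl45 at -0.0624 lowest. Outside the list, the genes most like the members' mean were Atp5l (r = 0.972), a subunit of ATP synthase, Timmdc1 (0.97), an assembly factor of complex I, 2410015M20Rik (0.969), Gm10221 (0.967) and Chchd2 (0.966), a mitochondrial protein of the intermembrane space.

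The rest of the mitochondrial translation system was followed in 3 lists. Ribosome assembly factors and further ribosomal proteins gave 21 of 26 positive differences for KO Ang II minus WT Ang II, with a median of 0.17, and 6 of 26 for WT Ang II minus WT saline, with a median of -0.12. Among them Dap3, a small subunit protein whose symbol falls outside the rule, averaged 8.83 ± 1.39 FPKM in KO Ang II, 6.60 ± 2.95 in WT Ang II and 8.39 ± 2.15 in WT saline (SD, n = 5 each). Ptcd3, a small subunit protein that binds RNA, had a slope on the brown adipocyte markers of 0.26 (SE 0.050, limma adjusted p = 0.00368), and 4 of the 26 had positive slopes past the threshold. Translation factors had positive slopes in 12 of 15, with a median of 0.20, and past the threshold in 5, led by Lrpprc, which stabilises mitochondrial messenger RNAs, at 0.34 (SE 0.035) and Taco1, an activator of Cox1 translation, at 0.51 (SE 0.056). Mitochondrial tRNA synthetases and related enzymes had 4 of 21, led by Fars2 at 0.28. For KO Ang II minus WT Ang II, translation factors were positive in 8 of 15, with a median of 0.09, and tRNA synthetases in 15 of 21, with a median of 0.17. For WT Ang II minus WT saline, they were positive in 7 of 15, with a median of -0.02, and in 9 of 21, with a median of -0.06. None of these lists had a gene past the threshold between groups.

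Genes of the respiratory chain and ATP synthase, nuclear and mitochondrial, had steeper slopes by their medians. Nuclear-encoded respiratory chain subunits had positive slopes past the threshold in 65 of 74, with a median slope of 0.39, against 0.17 for the 78 members, and one gene, Atp5g3, had a negative one at -0.40 (SE 0.063, limma adjusted p = 0.000838). The 13 protein-coding genes of mitochondrial DNA had 11 positive slopes past it and a median of 0.49. Between groups, the respiratory chain list was positive in 70 of 74 genes for KO Ang II minus WT Ang II, with a median of 0.40, and in 4 of 74 for WT Ang II minus WT saline, with a median of -0.28. Genes of mitochondrial DNA were positive in 12 of 13, with a median of 0.57, and in 1 of 13, with a median of -0.40, in the same order of comparisons. Genes of mitochondrial transcription and its regulators were positive in 6 of 12, with a median of 0.03, and in 5 of 12, with a median of -0.05. These regulators had positive slopes in 8 of 12, with a median of 0.17, and past the threshold in 4, with 0 negative past it. Tefm, an elongation factor of the mitochondrial RNA polymerase, had 0.31 (SE 0.057, limma adjusted p = 0.00283), and Tfb2m, which that polymerase needs to start, 0.32 (SE 0.073, adjusted p = 0.0114). Esrra, a nuclear receptor of mitochondrial genes, had a slope of 0.66 (SE 0.13, limma adjusted p = 0.00523) and Tfam, which packages mitochondrial DNA, 0.16 (SE 0.040, adjusted p = 0.0162), while Ppargc1a had 0.23 (SE 0.16, adjusted p = 0.417).

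The table of KO mice given saline listed 2025 transcripts, of which 974 were annotated and in every table, and only 4 belonged to members. In 95.79% of the 974, the means of KO Ang II and KO saline differed by at least 1.5-fold, against 66.63% between KO Ang II and WT Ang II and 61.91% between KO saline and WT saline. What is listed thus depended on the first of these contrasts, and the values are given without a test. The Mrpl15 transcript ENSMUST00000045689, marked for nonsense-mediated decay, had 2.75 ± 1.01 FPKM in KO Ang II, against 1.16 ± 0.540 in KO saline (SD, n = 5 each). Mrps14, a small subunit protein with a bacterial counterpart, had 3.18 ± 2.33 FPKM on ENSMUST00000097193 in KO Ang II, against 1.12 ± 1.52 in KO saline (SD, n = 5 each). A transcript of Mrps18c, ENSMUST00000112901, had 4.24 ± 2.54 FPKM in KO Ang II, against 1.35 ± 0.375 in KO saline, and one of Mrps9, ENSMUST00000187414, 2.18 ± 1.75 in KO Ang II, against 0.460 ± 0.346 in KO saline (SD, n = 5 each). In none of the 4 genes was the listed transcript the leading one.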

How the data were processed

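RNA-seq of 20 libraries (4 groups of 5) was deposited as FPKM per transcript, computed by the authors; per the labels' protocols, RNA was taken with TRIzol and libraries were made with a NEBNext Ultra kit, and per the submitters' processing notes bcl2fastq, FastQC, fastp and mm10 were used. The sources used here do not name the aligner or the program behind the FPKM. The deposited FPKM fell on whole multiples of a step (within 0.05 for 98.72% to 99.12% of values under 50 reads in the 15 libraries tested, and 95.74% to 98.74% in KO saline), which gave depths of 70.11 to 73.51 megareads in KO Ang II, 59.01 to 74.49 in WT Ang II and 62.82 to 67.03 in WT saline. FPKM of transcripts listed in both the WT and the KO Ang II tables, named by GENCODE M21 on GRCm38, were summed per gene. The 12536 genes averaging 1 FPKM or more in the 15 libraries were tested with limma 3.58.1 in R 4.3.3 (trend and robust). The values tested were log2(FPKM + 1), a scale that understates changes of low genes, with Benjamini-Hochberg adjustment over all tested genes. Each library has its own animal number; nothing more is said of replicates, so p-values measure the spread between these libraries. Transcript tests planned for KO saline were not run, because its listing depends on the values.

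Members, gene lists, markers and tests were chosen with earlier results of these data known. Members were named with values by rule: the 5 highest and the 5 lowest by level, per comparison those that pass or the 5 smallest p and the 3 largest differences each way, and those with a role beyond the ribosome; members shown for their slope, promoter or steadiness were chosen after their values were seen. Alternatives were the pseudocount (0.1), no filter, unlisted transcripts as 0, median-ratio scaling, quantile normalization, sample weights, the brown adipocyte covariate and left-out libraries.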

Additional observations from a re-analysis of the deposited data

Results flagged for a closer look

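Of 69 groups of 5 checked for a library standing apart from the others of its group, 8 were flagged. The flagged genes had been named for their differences in these same data, and the Mrpl sum is part of the sum of all 78 genes. A chance rate of about 1 in 20 would need separate groups not chosen by their values, so the count was not compared with it. In KO Ang II, Mrpl53 had 16.2 FPKM in animal KOAngII612, against 1.17 to 4.09 in the others, and Mrpl58 had 17.5 FPKM in animal KOAngII537, against 6.42 to 9.56. In WT Ang II, animal WTAngII580 stood above the others in the sum of all 78 genes at 1564 FPKM (others 1029 to 1174) and in the Mrpl sum at 1046 FPKM (others 707 to 776). The same animal was high in Mrps18b at 9.81 FPKM (others 3.44 to 5.08) and in Mrps5 at 9.71 FPKM (others 4.50 to 5.55); it also had the highest Ucp1 of its group. In WT saline, Mrpl45 had 7.49 FPKM in animal WTNS_523, against 2.18 to 3.66, and Mrpl50 had 17.2 FPKM in animal WTNS_373, against 13.3 to 14.2.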

How the results depend on the processing

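Under every alternative tried, 0 members passed the threshold in the 3 group comparisons. Of the single-gene values under the alternatives, 616 kept their sign and their side of the threshold and 5 turned round. Mrpl3 was 0.654 (KO Ang II minus WT Ang II) and 0.606 (KO Ang II minus WT saline) with a transcript unlisted in WT entered there as 0. Mrpl34 was 0.024 (WT Ang II minus WT saline) with the brown adipocyte covariate, and Mrpl39 was 0.021 (KO Ang II minus WT Ang II) with sample weights. Mrpl43 ran from -0.696 to 0.023 (KO Ang II minus WT saline) over the left-out libraries, positive without KOAngII537. The cause was not tested.

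Counts over all genes moved most. KO Ang II minus WT Ang II gave 0 genes, 15 without animals WTAngII580 and WTAngII581, and 0 to 3 over single left-out libraries. KO Ang II minus WT saline gave 11 genes, 0 with a pseudocount of 0.1, 18 with sample weights, 20 without animals WTAngII580 and WTAngII581, and 0 to 14 over left-out libraries, with 0 without WTNS_523, WTNS_547 or KOAngII537. WT Ang II minus WT saline gave 0 genes, 2 with sample weights and 0 to 2 over left-out libraries. Slopes past the threshold numbered 1532 genes, 713 without animals WTAngII580 and WTAngII581, 890 without the 2 libraries farthest from the median marker mean, and 797 to 1531 over left-out libraries. Members with such a positive slope numbered 32, 17 without animals WTAngII580 and WTAngII581, and 18 to 33 over left-out libraries. The settings with other covariates and without the farthest libraries were added after seeing the data. Members with a positive difference in WT Ang II minus WT saline numbered 19, 57 with the brown adipocyte covariate, and 17 to 37 over left-out libraries, with 37 without WTNS_373. Over left-out libraries the member median ran from 0.131 to 0.275 for KO Ang II minus WT Ang II, from -0.175 to -0.008 for WT Ang II minus WT saline and from 0.023 to 0.192 for KO Ang II minus WT saline.

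No paired analysis was possible because no animal number is shared between groups. Members overlapping other genes, transcripts listed in 1 table only (14 members) and 5 libraries per group, with a median SE of 0.19 on the log2 scale, limit what could be detected.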
